A study of Mus musculus with 3 samples.

Results

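The 10 genes of meiotic chromosome structure and recombination were followed across 3 arrays, and their transcripts were measured by 13 probes. The members are Stra8 for meiotic entry, Sycp2, Sycp3, Hormad1, Hormad2 and Smc1b of the chromosome axis, Sycp1, Syce1 and Syce2 of the central region of the synaptonemal complex, and Dmc1 for strand exchange. They were chosen by name, with earlier results of these data known. Their probes are those whose RefSeq accession belongs to a member. All 10 had at least 1 probe, among 20010 named genes on the array. The cells were primary embryonic fibroblasts (MEFs) of genotype Rb-/-;ATM-/- on the C57BL/6J background, taken at E10.0, and by the labels the control cells were double mutants as well. They carried a DNMT1 shRNA vector, an ATM expression vector or an empty vector. DNMT1 is the enzyme that copies DNA methylation onto new strands, and a short hairpin RNA lowers its transcript. By the labels the hairpin and ATM cells were made from the same double-mutant cells that serve as control, and nothing names independent embryos or cultures. All 3 were kept in puromycin at 4 µg/ml for 3 days to select for the vector and cultured for a further 4 days, and 1 Agilent 1-colour array was hybridised per group. With 1 array per group no difference has a replicate, so values are given without a p-value. Precision is limited by this number of arrays, and the spread between cultures is unknown. These are bulk samples, in which more cells of a kind and more RNA per cell cannot be told apart.

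In meiosis each chromosome is folded along a protein axis of cohesins, SYCP2, SYCP3 and HORMAD proteins. The axes of homologous chromosomes are then zipped together by SYCP1 filaments and the central element proteins SYCE1 and SYCE2, while DMC1 carries broken DNA ends into the homologue. In mouse somatic cells many genes of this machinery are kept silent, with promoter DNA methylation and repressor complexes that contain E2F6 among the known mechanisms.

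Signals are the processed intensities of the scanner software, and ± marks the software's own error of a single spot, which is technical. A probe is called dim when the software did not flag it as well above background. The lowest signal with that flag was 25.1 on the Dnmt1 shRNA array, 32.7 on the array labelled ATM vector and 37.8 on the empty-vector array. Of the 20010 genes, 68.1%, 63.3% and 63.7% had a probe well above background on these arrays, in the same order. Dnmt1 itself had a signal of 956 on the Dnmt1 shRNA array, 3169 on the array labelled ATM vector and 4908 on the empty-vector array, a log2 difference of -2.19 for the hairpin. Of 2 Atm probes 1 was dim on every array, and the other read 409 on the array labelled ATM vector against 430 on the empty-vector array. The ATM label is thus not borne out by these probes, whose place in the transcript is not given, and the array is called by its label. The Rb1 probe was well above background on all arrays as well, at 782 on the Dnmt1 shRNA array, 460 on the array labelled ATM vector and 541 on the empty-vector array. Without the probes' place relative to the deleted parts, neither the Rb1 nor the Atm signal checks the labelled genotype. The array labelled ATM vector was also alone on its slide and scan, so slide and vector cannot be told apart there. The Dnmt1 shRNA and empty-vector arrays shared a slide.

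Across the arrays 5 of 10 members were dim on every array, beside 30% of all genes. Exactly 3 members, Sycp3, Smc1b and Syce1, were well above background on the Dnmt1 shRNA array and on no other array, beside 3.85% of all genes. Syce2 was well above background on all arrays, as were 60.7% of all genes, and Dmc1 on the empty-vector array alone, a pattern shared by 0.705% of all genes. No member was well above background on the array labelled ATM vector alone, beside 1.13% of all genes. Genes well above background on all arrays cannot be so on 1 array alone. They are a larger part of all genes than of the members, so the shares for 1 array alone are not a like background. The plot of signals by array shows each probe.

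**Figure D1:**
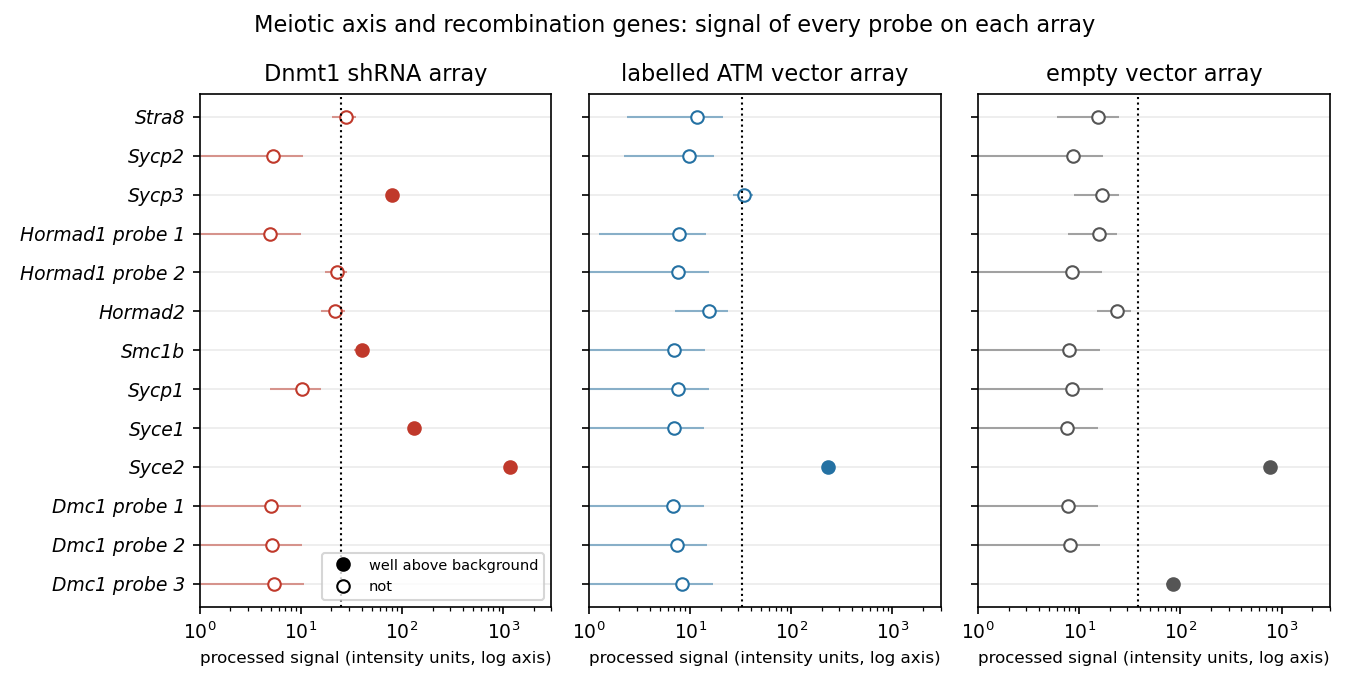
Processed signal (intensity units, log axis) of the 13 probes of the 10 members on the Dnmt1 shRNA array, the array labelled ATM vector and the empty-vector array. Filled points are well above background, bars are the software's error (a bar that meets the left edge runs to lower values), and the dotted line is the lowest signal flagged well above background on that array (25.1, 32.7 and 37.8). Syce1, Sycp3 and Smc1b are filled on the Dnmt1 shRNA array only, Syce2 on all arrays and 1 Dmc1 probe on the empty-vector array.

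Promoter sequences are shown for the members that were well above background on the Dnmt1 shRNA array alone, and for Hormad1, an axis member that was dim throughout. The windows hold the 250 bases before the annotated start, from RefSeq on GRCm38.p6, read 5′ to 3′ on the gene's strand. Capitals mark GCGGGA or its reverse complement TCCCGC, the core letters bound by E2F factors. Syce1 is at chr7:140787855-140788104 (minus strand), Smc1b at chr15:85131958-85132207 (minus strand), Sycp3 at chr10:88459337-88459586 (plus strand) and Hormad1 at chr3:95559427-95559676 (plus strand).
Syce1: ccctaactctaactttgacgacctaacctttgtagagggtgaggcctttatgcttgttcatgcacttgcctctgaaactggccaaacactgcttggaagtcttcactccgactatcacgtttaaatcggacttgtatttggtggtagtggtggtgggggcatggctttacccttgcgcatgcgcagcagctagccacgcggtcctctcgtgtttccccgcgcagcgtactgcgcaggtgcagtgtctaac
Smc1b: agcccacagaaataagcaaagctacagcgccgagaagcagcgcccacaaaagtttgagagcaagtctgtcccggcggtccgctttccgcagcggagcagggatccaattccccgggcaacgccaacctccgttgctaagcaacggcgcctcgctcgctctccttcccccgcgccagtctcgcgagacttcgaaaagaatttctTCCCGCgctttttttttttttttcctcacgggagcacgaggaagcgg
Sycp3: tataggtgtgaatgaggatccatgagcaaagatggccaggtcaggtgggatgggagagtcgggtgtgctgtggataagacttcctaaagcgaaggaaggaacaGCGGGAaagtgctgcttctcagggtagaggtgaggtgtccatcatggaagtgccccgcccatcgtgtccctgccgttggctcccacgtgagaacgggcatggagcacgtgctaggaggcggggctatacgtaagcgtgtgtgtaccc
Hormad1: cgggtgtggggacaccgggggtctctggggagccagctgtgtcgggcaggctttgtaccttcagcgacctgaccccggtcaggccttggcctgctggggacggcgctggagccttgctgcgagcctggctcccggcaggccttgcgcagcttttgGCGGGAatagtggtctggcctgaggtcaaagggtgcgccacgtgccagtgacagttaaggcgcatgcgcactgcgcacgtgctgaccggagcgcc

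These letters, searched on both strands, were present before the start of 5 of the 10 members, namely Sycp3, Hormad1, Smc1b, Syce2 and Dmc1. Counted by annotated start, 7 of 12 member windows held them, beside 16.9% of all 32851 windows and 40% of the 40 windows of further meiotic genes. Sycp3 and Smc1b hold 1 match each, Dmc1 holds 2 and Syce1 none. The palindrome CACGTG, bound by MAX and MGA of the same repressor complex, was found for 4 members (Sycp3, Hormad1, Sycp1 and Syce2), in 5 of 12 windows, beside 6.02% of all windows and 15% of the windows of further meiotic genes. Hormad1 makes up 2 of the 12 windows, with starts 2 bases apart. Both runs of letters hold a CG pair, and member windows were richer in CG pairs. The median number was 12.5 in member windows, 14.5 in windows of further meiotic genes and 6 in all windows. All windows are thus not a like background for these matches. A match is a run of letters and not a measured binding site.

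Among axis genes, Sycp3, which encodes the filament protein of the axis core, read 79.4 ± 9.41 on the Dnmt1 shRNA array, 34.0 ± 7.71 on the array labelled ATM vector and 16.7 ± 7.75 on the empty-vector array. The 34.0 passed the lowest flagged signal of that array but did not itself carry the flag. Smc1b, the meiosis-specific partner of SMC3 in cohesin, read 40.3 ± 6.52 on the Dnmt1 shRNA array, 7.0 ± 6.97 on the array labelled ATM vector and 7.99 ± 7.97 on the empty-vector array. Both were highest under Dnmt1 shRNA, and elsewhere the Smc1b signal was about the size of its error.

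Sycp2, the partner of SYCP3, was dim at 5.28 on the Dnmt1 shRNA array, 9.67 on the array labelled ATM vector and 8.60 on the empty-vector array. The 2 probes of Hormad1, whose protein marks axes that are not yet paired, were dim throughout and did not rank the arrays alike. The first read 4.99, 7.85 and 15.8 on the Dnmt1 shRNA array, the array labelled ATM vector and the empty-vector array, and the second read 22.9, 7.66 and 8.43. Hormad2, which works with HORMAD1 in surveillance of unpaired axes, read 21.6 ± 5.87, 15.4 ± 8.26 and 23.8 ± 9.01 on the same arrays. No order of the arrays can be read from values this close to background.

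In the central region of the synaptonemal complex the members parted. Syce1, a central element protein that binds SYCP1, read 132 ± 14.1 on the Dnmt1 shRNA array, 6.86 ± 6.83 on the array labelled ATM vector and 7.64 ± 7.60 on the empty-vector array. Its signal was well above background on the Dnmt1 shRNA array and about the size of its error on the others. Syce2, which extends the central element along the chromosome, was by far the brightest of the members' probes on each array, although signals of different probes are not comparable as transcript levels. It read 1173 ± 117 on the Dnmt1 shRNA array, 230 ± 24.5 on the array labelled ATM vector and 765 ± 76.9 on the empty-vector array. Sycp1, the transverse filament that bridges the axes, was dim at 10.3, 7.67 and 8.54 on the same arrays.

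Dmc1, the meiosis-specific recombinase of strand exchange, was bright on the empty-vector array alone, by 1 of its 3 probes. That probe read 5.42 ± 5.40 on the Dnmt1 shRNA array, 8.36 ± 8.32 on the array labelled ATM vector and 83.7 ± 11.7 on the empty-vector array. Its other probes were dim on all arrays. They read 5.06 and 5.18 under Dnmt1 shRNA, 6.84 and 7.34 for the array labelled ATM vector, and 7.66 and 8.05 for the empty vector, so the gene's signal rests on a single spot. Stra8, the retinoic acid-induced factor that starts the meiotic programme, was dim at 27.8 ± 7.49 on the Dnmt1 shRNA array, 11.7 ± 9.30 on the array labelled ATM vector and 15.4 ± 9.38 on the empty-vector array. The 27.8 lay above the lowest flagged signal of its array without carrying the flag.

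Dnmt1-depleted cells were then set against empty-vector cells, to see which members differ when Dnmt1 is low. Each signal was divided by the 75th percentile of its array and taken to log2. A gene dim on 1 of the 2 arrays has a lower bound only, its bright value set against the higher of its own dim signal and the lowest flagged signal of the dim array. Syce1 was at least 3.92-fold higher on the Dnmt1 shRNA array. Sycp3 was at least 2.36-fold higher, while the bound for Smc1b was 1.20-fold, so the detection limit sets how much of its measured difference can be stated. Syce2 was 1.72-fold higher (log2 difference 0.78) on signals well above background on both arrays. The pooled SD between different probes of 1 gene was 0.21, a spread within the same 2 arrays that holds no variation between arrays or cultures. Dmc1 was at least 2.98-fold lower by its 1 detected probe.

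Of the 5 tested members, 2 were at least 2-fold higher and 1 at least 2-fold lower on the Dnmt1 shRNA array, beside 5.19% and 1.57% of all tested genes. Syce2, the member well above background on both arrays, was under 2-fold, where 3.72% of such genes were at least 2-fold higher and 0.866% at least 2-fold lower. The median of the tested members was 0.78 on the log2 scale, against -0.0065 over all tested genes. A member dim on the empty-vector array was tested only because it was bright on the Dnmt1 shRNA array, so this count and this median carry that selection. Of all 13785 tested genes 12580 were well above background on both arrays, but only 1 of the 5 tested members. The shares of 5.19% and 1.57% thus come mostly from genes bright on both arrays and are not a like background. With the signals taken as measured the log2 differences were 4.28 for Syce1, 2.50 for Smc1b, 2.41 for Sycp3 and -3.78 for Dmc1. The bounds on the same scale were 1.97 for Syce1, 0.26 for Smc1b, 1.24 for Sycp3 and -1.57 for Dmc1. After normexp background correction the bounds for Sycp3 and Dmc1 were 0.81 and -0.63, both under 2-fold. The Syce1 bound was then 1.68 and the Smc1b bound 0.66.

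**Figure D2:**
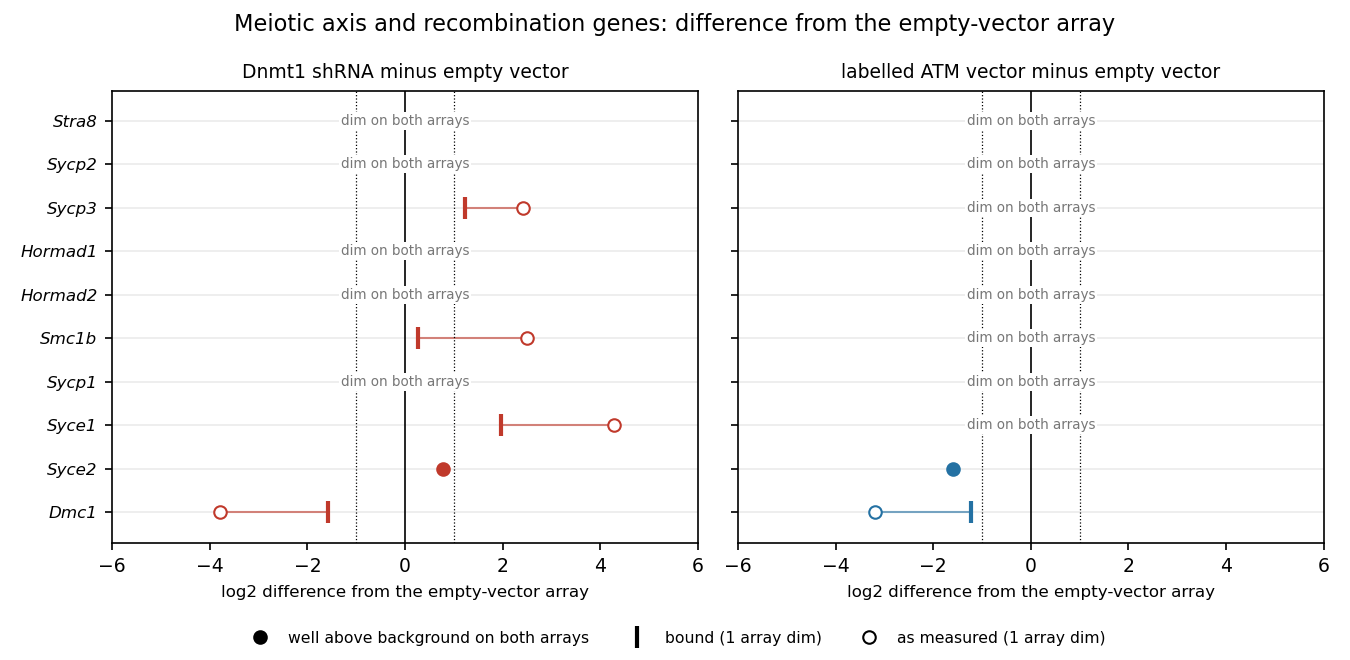
Log2 difference of the Dnmt1 shRNA array (left) and of the array labelled ATM vector (right) from the empty-vector array for the 10 members. Filled points are well above background on both arrays, vertical ticks are bounds where 1 array is dim, open points are the measured difference for the same gene, and dotted lines mark 2-fold. On the left Syce1 and Sycp3 pass 2-fold upward and Dmc1 downward, and Syce2 and Dmc1 lie below -1 on the right.

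**Figure D3:**
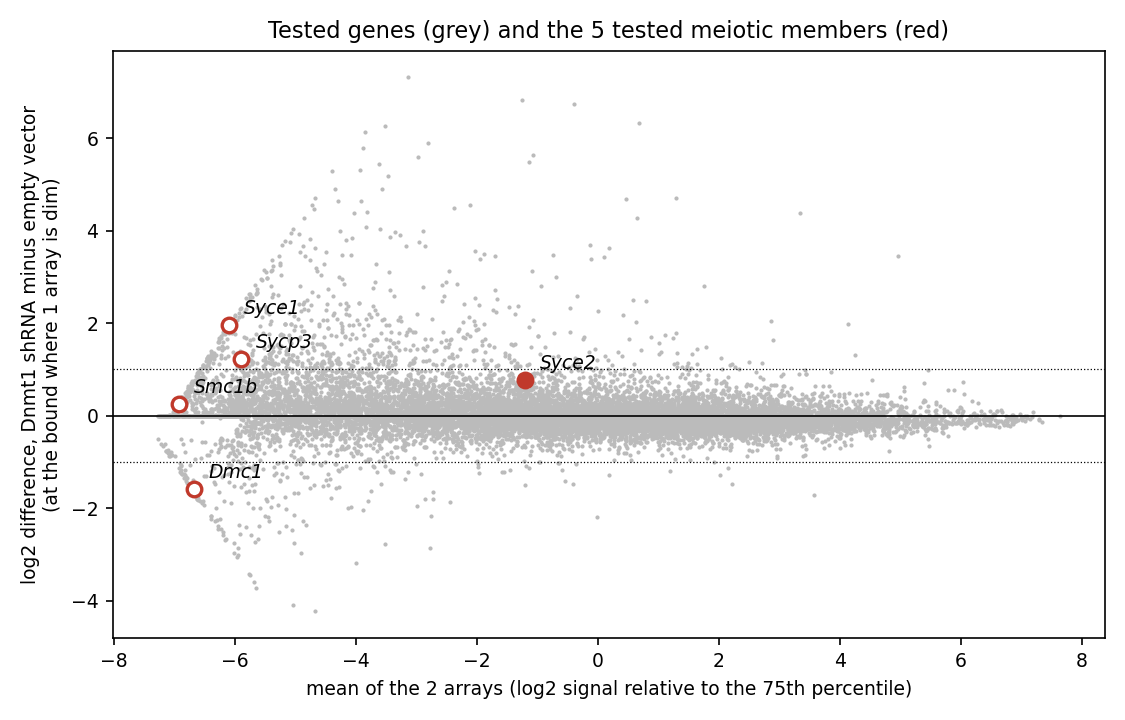
Log2 difference of the Dnmt1 shRNA array from the empty-vector array against the mean log2 signal of both arrays, for 13785 tested genes (grey) and the 5 tested members (red). Open red points are bounds; dotted lines mark 2-fold. Syce1, Sycp3, Smc1b and Dmc1 sit at the dim end of the range, and Syce2 is the one member in its middle.

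Next, the array labelled ATM vector was set against the empty vector, which by the labels tests the return of ATM to cells that lack it. Only Syce2 and Dmc1 could be tested, and both were at least 2-fold lower on the array labelled ATM vector, beside 6.82% of all tested genes lower and 7.55% higher. Syce2 was 3.02-fold lower (log2 difference -1.60). The SD between probes of a gene was 0.34 here, and it again holds no variation between arrays or cultures. Of genes well above background on both arrays, as Syce2 was, 4.82% were at least 2-fold lower and 6.3% at least 2-fold higher. Dmc1 was at least 2.33-fold lower by its 1 detected probe, a bound of -1.22 on the log2 scale. After normexp the bound was -0.80, under 2-fold. The median of the 2 was -1.41, against 0.025 over all tested genes. Dmc1 was tested here, as under Dnmt1 shRNA, only because it was bright with the empty vector, so it could only come out lower, and this count and median carry that selection. Sycp3, Smc1b and Syce1 were dim on both arrays of this comparison, so no difference is given for them. Both comparisons share the empty-vector array, so their values are not independent.

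Because the Dnmt1 shRNA array had the lowest detection limit, detection was repeated with 1 common level, the highest of the 3 limits after scaling. Sycp3, Smc1b and Syce1 were again above it on the Dnmt1 shRNA array and on no other, beside 2.78% of all genes, and Dmc1 again on the empty-vector array alone, beside 0.855%. On the array labelled ATM vector alone there was again no member, beside 1.47% of all genes. These shares over all genes are again not a like background. Of the members above the limit Smc1b lay nearest to it, at -5.68 on the normalized log2 scale against -5.93. Sycp3 on the array labelled ATM vector, at -5.95, lay just under the limit.

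The remaining meiotic machinery was read from a list of 44 further genes, of which 38 had a probe. Well above background were 21 of 38 on the Dnmt1 shRNA array, 14 on the array labelled ATM vector and 16 on the empty-vector array. These are 55.3%, 36.8% and 42.1% of the list, beside 68.1%, 63.3% and 63.7% of all genes on the same arrays. The number detected under Dnmt1 shRNA and nowhere else was 6, or 15.8% of the 38. These were the cohesin subunit Stag3, the central element gene Tex12, the break-formation gene Rec114 and the crossover genes Ccnb1ip1, Tex11 and Cntd1. Together with the 3 members, 9 of 48 meiotic genes (18.8%) had this pattern, beside 3.85% of all genes. A gene well above background on all arrays cannot have it. Such genes made up 60.7% of all genes, but only 1 of 10 members and 14 of the 38 further genes. The 3.85% is thus not a like background. As the members and this list were chosen with earlier results of these data known, these shares are a description and not a test.

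Stag3, the cohesin subunit that sits with SMC1B on the meiotic axis, read 473 on the Dnmt1 shRNA array, 27.9 on the array labelled ATM vector and 30.9 on the empty-vector array, and was at least 14.0-fold higher on the Dnmt1 shRNA array. Its partner Rec8, the meiotic kleisin, was well above background on all arrays at 1003, 353 and 357, a 3.15-fold higher signal on the Dnmt1 shRNA array. Ccnb1ip1 was at least 2.76-fold and Rec114 at least 2.30-fold higher. Of 22 tested genes of this list, 4 were thus at least 2-fold higher and 1 lower on the Dnmt1 shRNA array, with a median of 0.07 on the log2 scale, beside 5.19% higher and 1.57% lower over all tested genes. Stag3, Ccnb1ip1 and Rec114 were tested only because they were bright under Dnmt1 shRNA. Of the 22 tested genes 15 were well above background on both arrays, a smaller part than of all tested genes, so those shares are not a like background. Over probes well above background on all arrays the counts were 1 higher and 0 lower. Rec8, Ccnb1ip1, Rec114, Tex12, Tex11, Cntd1 and Mlh3 are named here after their values were seen.

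Spata22, whose protein binds single-stranded DNA during strand exchange, had the same array pattern as Dmc1. Its single probe read 5.40 on the Dnmt1 shRNA array, 7.78 on the array labelled ATM vector and 228 on the empty-vector array, at least 8.12-fold and at least 6.35-fold lower than the empty-vector array. On the array labelled ATM vector Tex15, needed for recombination in male meiosis, was at least 6.32-fold lower by 1 of its 2 probes, the other being dim throughout. Kash5, which ties telomeres to the cytoskeleton, was 4.33-fold higher there and Mlh3, a crossover-resolving mismatch repair protein, 2.33-fold higher. After normexp 0 genes of this list were at least 2-fold higher there, so both calls were lost. Of 16 tested genes in this comparison 2 passed 2-fold upward and 2 downward, beside 7.55% and 6.82% of all tested genes, and the median log2 difference was -0.15. Spata22 in both comparisons, and Tex15 in this one, were tested only because they were bright with the empty vector.

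**Figure D4:**
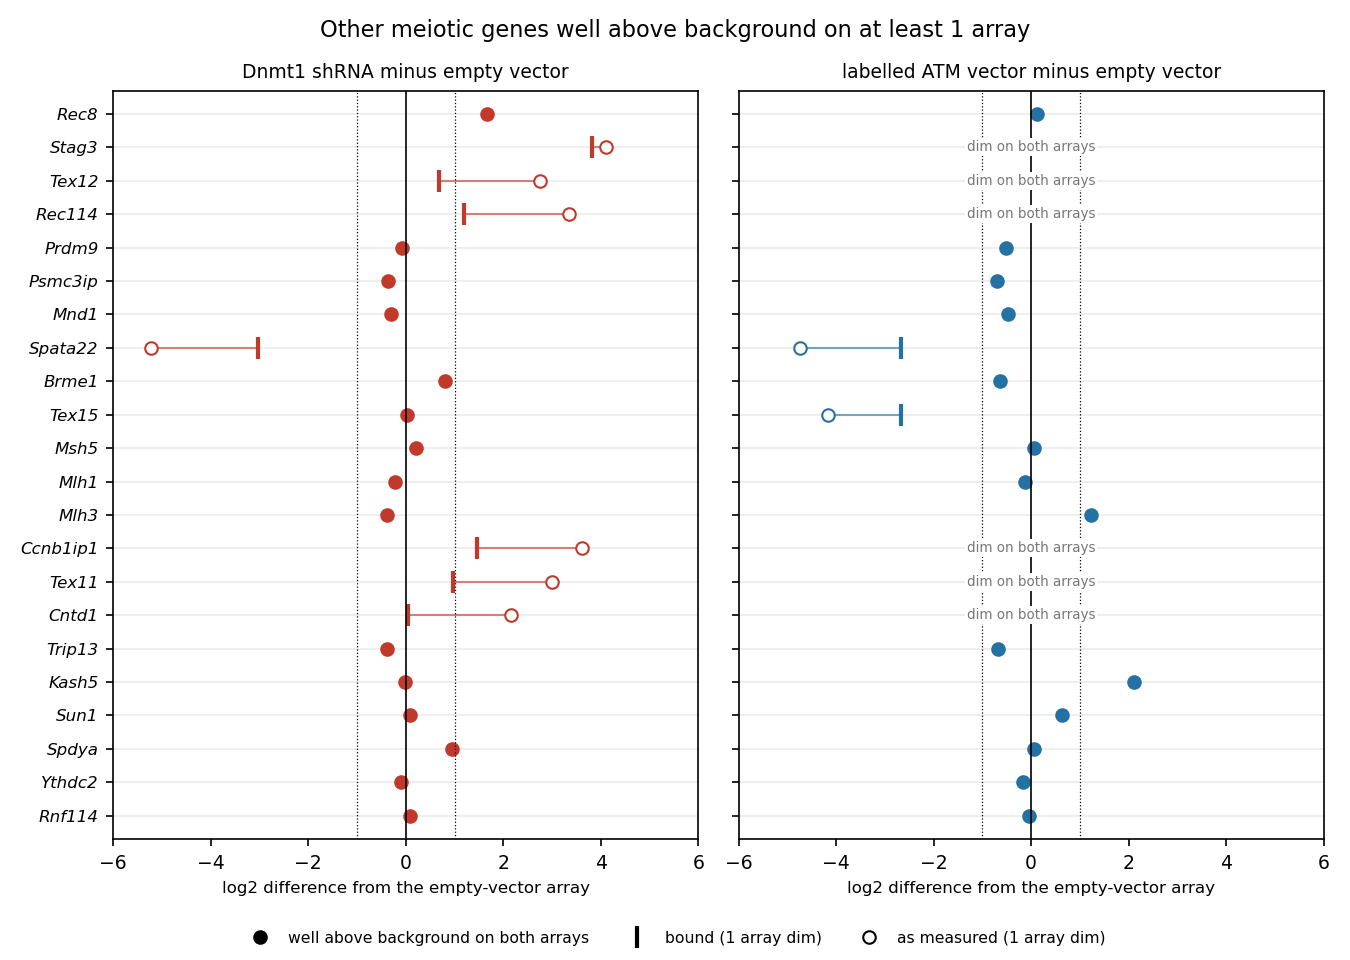
Log2 difference of the Dnmt1 shRNA array (left) and of the array labelled ATM vector (right) from the empty-vector array for the 22 further meiotic genes well above background on at least 1 array. Filled points are well above background on both arrays of the comparison, vertical ticks are bounds where 1 array is dim, open points are measured differences, and dotted lines mark 2-fold. On the left Stag3, Rec8, Ccnb1ip1 and Rec114 pass 2-fold upward and Spata22 downward; on the right Kash5 and Mlh3 are higher, Spata22 and Tex15 lower.

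Mitotic cohesin genes and an axis relative were measured for comparison. All 6 (Smc1a, Smc3, Rad21, Stag1, Stag2 and Mad2l1) were well above background on every array, and 0 of 6 were 2-fold different in either comparison. Smc1a, the mitotic counterpart of Smc1b, had a log2 difference from the empty vector of -0.12 under Dnmt1 shRNA and 0.16 on the array labelled ATM vector. Known repressors of meiotic genes were read the same way. Of 14, Dnmt1 alone was at least 2-fold lower on the Dnmt1 shRNA array and 0 were higher. The log2 difference of E2f6 was -0.13 with Dnmt1 shRNA and -0.72 with the ATM label. Pcgf6, a subunit of the polycomb complex that contains E2F6, was 2.23-fold higher on the array labelled ATM vector.

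Markers of cells that could carry meiotic transcripts were read beside these results. Of 13 germ cell lineage markers 5 were well above background on the Dnmt1 shRNA array, 5 on the array labelled ATM vector and 4 on the empty-vector array. Of all genes 68.1%, 63.3% and 63.7% were so on the same arrays. The markers' summed signals were 1776, 1546 and 1472, of which the Nanos3 probe gave 872, 867 and 889. These sums join different probes without scaling between arrays, so they do not measure germ cell content. Dim on all arrays were 8 of the 13 markers, among them Ddx4, Dazl and Dppa3, beside 30% of all genes. Nanos3 and Prdm1 were well above background on every array and under 2-fold in both comparisons. Dnd1 and Sohlh2 were also well above background on every array, and 2.39-fold and 2.32-fold higher on the Dnmt1 shRNA array. Pluripotency markers were well above background for 3 of 6 on each array, namely Nanog, Utf1 and Tdgf1. Pou5f1, Sox2 and Zfp42 were dim on all. Tdgf1, by 1 of its 3 probes, was 2.11-fold higher on the array labelled ATM vector than on the empty-vector array. Gonadal support cell markers numbered 6 of 8 on the Dnmt1 shRNA array and 5 of 8 on each of the others. Fibroblast markers numbered 11 of 11 on the Dnmt1 shRNA array, 11 on the array labelled ATM vector and 10 on the empty-vector array. In each comparison 8 of the 11 were under 2-fold, with Col1a1, Col1a2, Col3a1, Fn1 and Vim so in both. The levels of some others differed. Thy1, a surface protein of fibroblasts and other cells, read 1218 on the Dnmt1 shRNA array, 44.3 on the array labelled ATM vector and 31.8, dim, on the empty-vector array, at least 36.2-fold higher under Dnmt1 shRNA. Lum and Pdgfra were 2.49-fold and 2.26-fold higher under Dnmt1 shRNA. With the ATM label Lum, a matrix proteoglycan, was 9.23-fold and Dcn 2.15-fold lower, and S100a4 was 3.38-fold higher. In this marker list genes other than Thy1, Lum, Kit and Wt1 are named after their values were seen. The part of other cells in the meiotic signals was not tested.

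Of the tested members Syce1 had the largest difference under Dnmt1 shRNA, and 770 genes shared its pattern of detection. The 5 of them nearest to it in both log2 differences from the empty vector, by Euclidean distance over 3 arrays, were Vmn1r191, Rhox9, AI662270, Dcaf8l and Cox7b2, at distances of 0.053 to 0.10. They were picked for this closeness, and both differences rest on dim signals, so the distances describe the choice only.

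In the same promoter windows CG pairs, the substrate of DNMT1, numbered 25 for Smc1b, 13 for Syce1 and 12 for Sycp3. The other members ranged from 5 for Stra8 to 24 for the second annotated start of Syce2, and the median over all windows was 6. Smc1b had more CG pairs than 89.3% of all windows, and Stra8 more than 44.4%. The plot of CG pairs shows the counts by member. Members dim on every array ran from 5 for Stra8 to 19 for Hormad1, with 17 for Sycp1. Methylation was not measured in these files. Of genes running away from a member within 1000 bases of its start on the opposite strand, 1 was found, Ribc2 beside Smc1b, whose protein belongs to the microtubule doublets of cilia. Ribc2 was dim on all arrays, at 5.01 on the Dnmt1 shRNA array, 6.62 on the array labelled ATM vector and 8.02 on the empty-vector array.

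**Figure D5:**
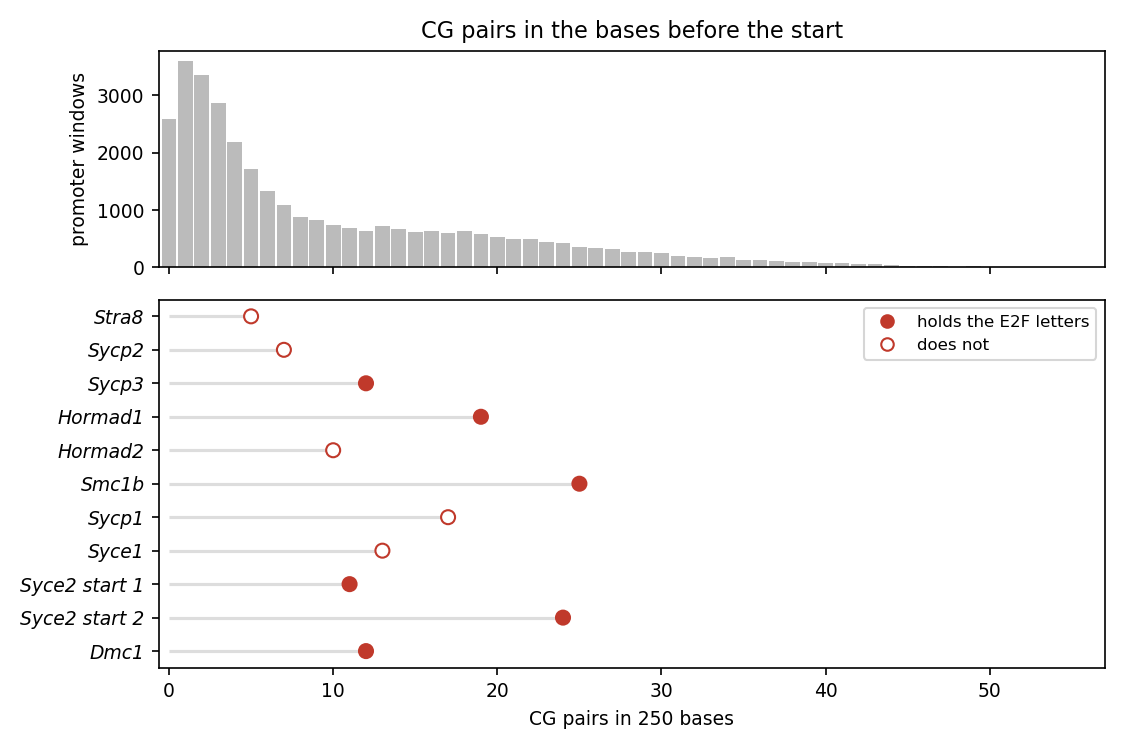
Number of CG pairs in the 250 bases before the start (horizontal axis) for all 32851 promoter windows (top, bars count windows) and for the members (bottom, 1 point per annotated start, starts with equal counts drawn once). Filled points hold GCGGGA on either strand. Smc1b has 25 pairs, Syce1 13 and Sycp3 12, and the median of all windows is 6.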

How the data were processed

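RNA of 3 samples, 1 per group, was measured on Agilent 1-colour (Cy3) arrays. The groups follow the transfection label. The deposited intensity values came from Agilent Feature Extraction 10.7.3.1, per the file headers and the submitters' processing notes. They are linear, with background and a spatial trend removed, and no scaling between arrays is recorded. The flags for detection and outliers are the same software's marks, per the file headers. The deposited series matrix holds the same intensity to within 0.495%.

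Control and outlier spots were left out, no spot was saturated, and repeat spots were averaged on the log2 scale, leaving 39404 probes. Each array was centred on its own 75th percentile. Accessions were matched to RefSeq genes of GRCm38.p6, giving 1 symbol for 26412 of 39429 probes and none for 13017. The array design was placed on mm9, so no probe coordinates are printed. A probe counted in a comparison if well above background on at least 1 of its arrays, and a gene's difference is the mean over counted probes. The files hold no mean spot signal, so normexp (offset 50, limma 3.58.1) used the median signal. The alternatives were normexp, quantile scaling, array medians, other detection rules, outlier spots kept, the deposited matrix and the brightest probe. Python 3.11.15 was used, and the calculation was tested on simulated data. Detection there was a strict cutoff in signal, which the real flags are not. The simulation thus does not test the bounds near background. Both strands of 1668 overlapping opposite promoter windows gave the same letters.

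The members and lists were chosen with earlier results of these data known. All members are named. From each other list up to 4 genes with the largest difference are named by rule, further ones only where the text says so, and of the somatic relatives and repressors any measured gene may be. Genes most like a member were taken by the smallest distance in the 2 log2 differences among genes of the same detection pattern. 1 gene of the comparison lists is not reported here.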

Additional observations from a re-analysis of the deposited data

How the results depend on the processing

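No paired analysis was possible because each group has 1 array, and no array could be left out. The 10 alternatives reversed no member's direction, but the Smc1b bound on the Dnmt1 shRNA array was 0 with quantile scaling, so no direction was left there. Members at least 2-fold higher on the Dnmt1 shRNA array (2) numbered 4 with the laxer flag gIsPosAndSignif or without a filter, 1 with normexp or with arrays centred on their medians, and 0 over probes well above background on all arrays, where Syce2 alone was left. Members at least 2-fold lower there (1) numbered 0 with normexp and 0 over those probes. On the array labelled ATM vector, members higher (0) numbered 1 with gIsPosAndSignif and 1 without a filter, and members lower (2) numbered 1 with normexp and 1 over those probes. The members' median was 0.55 with array medians on the Dnmt1 shRNA array. For the array labelled ATM vector it was -0.49 with gIsPosAndSignif and -0.16 without a filter. With gIsPosAndSignif, 8, 6 and 6 members counted as detected on the Dnmt1 shRNA array, the array labelled ATM vector and the empty-vector array. Other meiotic genes higher on the Dnmt1 shRNA array (4) numbered 7 with gIsPosAndSignif or without a filter and 1 over probes well above background on all arrays. Those lower (1) numbered 2, 2 and 0 under the same settings. On the array labelled ATM vector those higher (2) numbered 0 with normexp and those lower (2) numbered 0 over probes well above background on all arrays. Array medians moved the median of all genes to -0.25 on the Dnmt1 shRNA array, so the Smc1b bound of 0.021 and the Sycp3 bound of 0.999 there include that shift. No share over all genes is given under the alternatives, so their counts of members and of other meiotic genes have no like background. In the Dnmt1 shRNA comparison 13785 genes were tested in the main setting, 16549 with gIsPosAndSignif and 20010 without a filter. Fewer genes, 12140, are counted by construction over probes well above background on all arrays. For the other changes the cause was not tested. Signals near background limit all members but Syce2.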

Other observations

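Among the cell type markers, detection differed between arrays for Thy1, described with the fibroblast markers, and for Wt1 and Kit. Wt1, a transcription factor of gonadal support cells and kidney, was well above background on the Dnmt1 shRNA array only and at least 4.95-fold higher there than on the empty-vector array. Kit, a receptor tyrosine kinase of germ, mast and pigment cells, was at least 6.41-fold higher on the array labelled ATM vector than on the empty-vector array.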
